A study of Dendrobaena veneta with 18 samples.

Results

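The comparison set the gut of adult earthworms, Dendrobaena veneta, kept for 28 days in topsoil with 0.6 mg/kg carbamazepine (low dose) against the gut of worms kept for the same time in topsoil that had received methanol alone (control). All groups were held in the dark without added food, and poly(A)-selected RNA was sequenced. The members are the assembled genes, called features here, with 10 or more counts in at least 2 of the 5 libraries of these groups. There were 49345 of them among 243619 features in the series. The libraries were control gut 2 and 3 and low dose gut 1, 2 and 3, and control gut 1 was not analysed here. The same series holds 3 gut libraries at 10 mg/kg carbamazepine (high dose) and 9 libraries of the cerebral ganglion, 3 per dose, which are used for the spread between samples and for comparison.

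Carbamazepine is used against epilepsy and acts on voltage-gated sodium channels, which it blocks. In vertebrates it is oxidised mainly by cytochrome P450 enzymes of the liver. The earthworm gut digests the organic matter of swallowed soil, and its epithelium is one of the surfaces through which chemicals in soil reach the body. Chloragogen tissue, which lies around the gut, stores glycogen and lipid and takes part in detoxification. The files give the features only assembly identifiers, with no gene names, so no feature could be assigned a function and the tissue label could not be checked against known gut markers. Features are therefore described by their level, length, tissue distribution and place in the assembly. At most 2 that were higher and 2 that were lower are printed by identifier, without the TRINITY prefix.

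Low dose gut libraries 1 and 3 were nearly identical. The chi-square between their counts averaged 2.32 per feature over 46395 features, where counting noise alone gives 1, and 5 features had 50 or more counts in one and 0 in the other. The mean chi-square was 54.05 between the control libraries and 34.3 between low dose library 2 and either of the others. Libraries 1 and 3 were therefore averaged to 1 sample, which leaves 2 control and 2 low dose samples. Library totals ran from 13195692 to 14270200 counts in the 5 libraries, and 28706 members had 10 or more counts in all of them. Of the members, 7289 reached 10 counts in no control library, 501 reached it in no low dose library, and 3793 reached it only in low dose libraries 1 and 3. The rule thus admitted more features through the low dose group, which has 3 columns against 2. Nothing in the labels says whether a library is 1 worm or a pool, so the p-values refer to the spread among these libraries, which may be technical.

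Among the features present in every library, 2 passed the test and both were higher. DN88869_c4_g1 and DN97182_c4_g3 rose 28.5-fold and 26.3-fold in low dose gut, and neither was at a comparable level at 10 mg/kg or in any ganglion. The features ranked first in the downward direction, DN79356_c0_g2 and DN102767_c0_g1, were 6.06-fold and 9.46-fold lower in low dose gut but did not pass the adjusted threshold. These 4 had the smallest p in each direction among the features with 10 or more counts in all 5 libraries.

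DN88869_c4_g1 had a length of 3102 bases, as recovered from counts and FPKM. It stood at 3.64 and 3.58 CPM (the count relative to the scaled library total) in control 2 and 3, and at 101.4, 105.1 and 99.9 CPM in low dose 1, 2 and 3. The groups were far apart and the low dose samples close together. At 10 mg/kg it stood at 3.97, 2.28 and 2.76 CPM, which is at the level of the controls. The ganglion held it at similar levels at all doses, with 6.50 ± 0.432 CPM (SD, n = 3) in control, 9.08 ± 2.34 with 0.6 mg/kg and 7.74 ± 1.56 with 10 mg/kg. The log2 fold in gut was 4.83 (SE 0.349), with an adjusted p of 0.0153 from the edgeR fit to all members.

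DN97182_c4_g3, with a length of 3586 bases, stood at 4.93 and 4.62 CPM in control gut and at 147.9, 98.1 and 157.1 CPM in low dose gut 1, 2 and 3. All low dose libraries lay above all controls, with the averaged pair higher than library 2. At 10 mg/kg it stood at 13.3, 15.55 and 11.96 CPM, between the other groups. In the ganglion it varied within each group, between 0.729 and 9.75 CPM at the low dose and between 3.24 and 14.3 CPM in control. Its log2 fold in gut was 4.71 (SE 0.342, adjusted p = 0.0153 by edgeR).

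DN79356_c0_g2 was seen only in gut, with 0 counts in all 9 ganglion libraries, a count that allows at most 3 counts in a library. It stood at 10.1 and 12.1 CPM in control gut, at 1.593, 1.75 and 2.16 in low dose gut and at 11.2, 14.6 and 10.95 in high dose gut. The low dose libraries were thus lowest and did not overlap with either other group. The log2 fold was -2.59 (SE 0.315, adjusted p = 0.126 by edgeR). DN102767_c0_g1 stood at 8.64 and 9.99 CPM in control gut and at 0.797, 1.18 and 0.774 in low dose gut, a log2 fold of -3.23 (SE 0.464, adjusted p = 0.215 by edgeR). At 10 mg/kg it stood at 4.21, 3.66 and 6.52 CPM in gut, between the other groups. In the ganglion it was at 11.6 CPM in low dose library 3 and at 0.0662 and 0.165 in low dose libraries 1 and 2. High dose ganglion 2 held 6.05 CPM, against 0.199 and 0.808 in high dose ganglion 1 and 3. Its level thus differed between libraries of 1 group there.

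**Figure D1:**
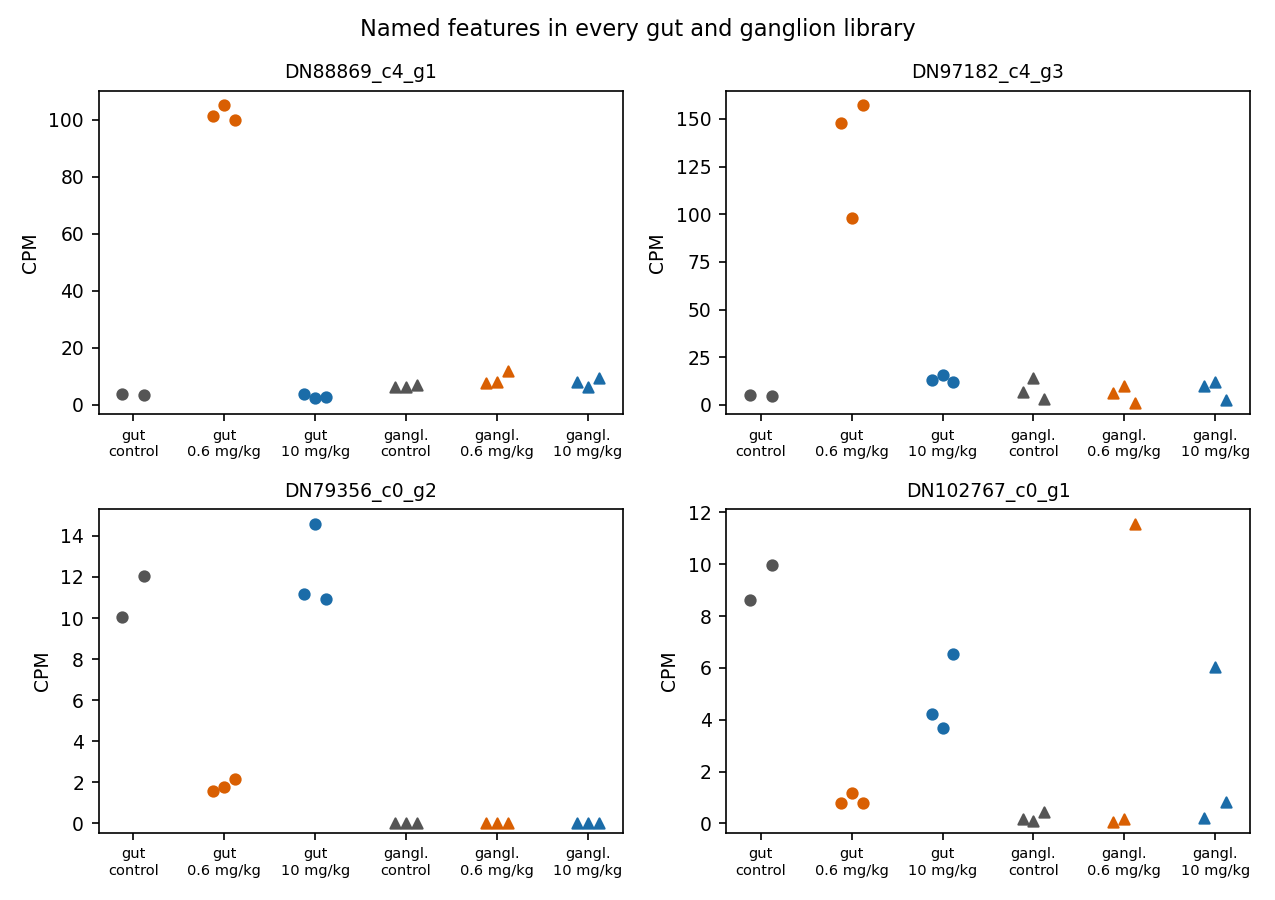
CPM of the 4 named features in each gut library (circles) and each ganglion library (triangles), by dose; each point is 1 library and axes are linear. DN88869_c4_g1 lies between 99.9 and 105.1 CPM in low dose gut and at no more than 11.8 CPM in any other library.

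The adjusted calls of both rising features depended on the samples in the fit, while their folds did not. Over 21 alternatives the log2 fold of DN88869_c4_g1 stayed between 4.36 and 5.26, and its adjusted p reached 0.621 by edgeR. With high dose 1 and 3 averaged its call was lost (adjusted p = 0.123 by edgeR). The call was lost without control 2 or 3, without low dose 2, without the low dose pair, and without high dose 1 or 3. Counts summed over the 5 features of its assembly component, the group of sequences that the assembler placed together, were 444 and 39 in control 2 and 3, against 1783, 1686 and 1813 in low dose gut, and this component was not called. The component of DN97182_c4_g3 held 91 and 200 counts in control and 2639, 1611 and 2909 in low dose gut, and was not called either.

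Across all members, 16 features had an edgeR adjusted p under 0.05, which is 0.0324% of those tested. There were 9 higher (0.0182%) and 7 lower (0.0142%) in low dose gut. Most were absent from one group and present in the other. Of the 9 higher features, 5 had 0 counts in both control libraries, and of the 7 lower, 5 had 0 counts in all 3 low dose libraries. The higher features stood between 5.85 and 129 CPM in low dose gut, with a median of 19.8. The lower features stood between 4.36 and 1222 CPM in control gut, with a median of 24.4.

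The lower feature of highest level, 1476 bases long, stood at 735.7 and 1709 CPM in control gut. In low dose 1, 2 and 3 it was at 0.171, 0 and 0.111 CPM, and at 10 mg/kg at 646.5, 707.7 and 728.2. In the control ganglia it stood at 1800, 3814 and 12680 CPM, against 16.01, 25.9 and 8691 in low dose ganglion 1, 2 and 3, so the low level was also seen in 2 of the 3 low dose ganglia. The higher feature of highest level, 1017 bases long, had 0 counts in both controls and stood at 77.1, 183.8 and 71.3 CPM in low dose gut and at 74.5, 92.2 and 94.6 in high dose gut. Against a floor of 3 counts per library, the 5 features at 0 in control were at least 23.55-fold to 519-fold higher in low dose gut, and the 5 missing from the low dose libraries at least 88.1-fold to 328-fold lower. In high dose gut the 9 higher features stood between 3.002 and 87.1 CPM, with a median of 13.6, and the 7 lower between 3.88 and 694, with a median of 19.9. Both doses are compared with the same 2 control libraries. The high dose gut libraries also entered the fit that made the calls, so their levels are not independent of it.

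**Figure D2:**
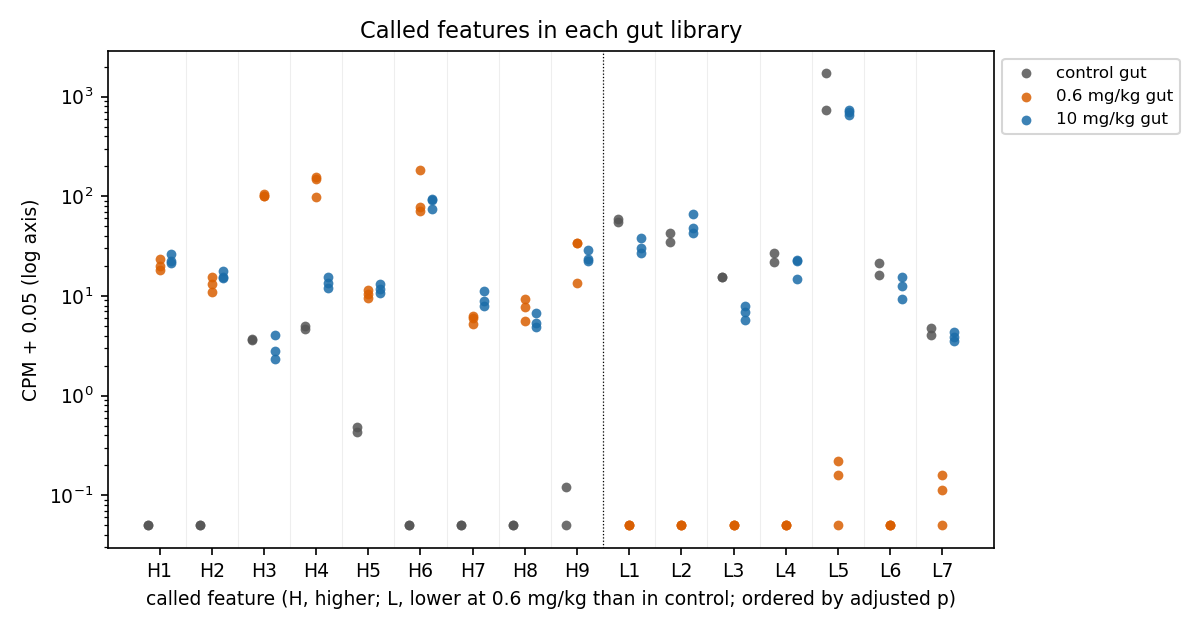
CPM plus 0.05 (log axis) of the 16 called features in each of the 8 gut libraries, with higher features (H) left and lower features (L) right of the dotted line. All 7 lower features are at or near 0 in the 3 low dose libraries and between 3.88 and 694 CPM, as means, at 10 mg/kg.

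The number of calls rested on few samples. It was 0 without control 2, without control 3, without the low dose pair, without high dose 1 and without high dose 3, and 28 without high dose 2. With these single samples left out and no call made, 2932 to 5125 features had an unadjusted p under 0.05. The count was also 0 with high dose 1 and 3 averaged (3197 unadjusted), a pair that had 9 features at 50 or more counts in one and 0 in the other against 1028 for the 2 controls. With all samples, 4041 features (8.19%) had an unadjusted p under 0.05, of which 2053 were higher and 1988 lower, and DESeq2 called 716 (346 higher and 370 lower). With library totals alone as the scale the unadjusted split was 3632 higher and 705 lower, and the median log2 fold of all members was 0.51 in place of 0.08. With limma on log2 (FPKM + 1) the calls were 243 higher and 87 lower.

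Presence and absence went beyond the called features. In all, 157 members (0.318%) had 10 or more counts in both controls and 0 in all low dose libraries, and 402 (0.815%) had 10 or more in all low dose libraries and 0 in both controls. With a minimum of 100 counts the numbers were 21 and 28, and with 1000 counts 1 and 1. Single samples of 1 group also differed in this way, by a looser criterion of 1 sample against 1, whose counts cannot be set against the 157 and 402. There were 1520 features with 10 or more counts in control 2 and 0 in control 3, and 1153 the other way round. Low dose 2 held 795 that were at 0 in low dose 1 and 3, and that pair shared 1393 that were at 0 in low dose 2.

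The ganglion libraries of the same dose groups differed in which of these features they held. Of the 157 features absent from low dose gut, 41.4% and 45.9% reached 10 counts in control ganglion 1 and 3, and 13.4% in control ganglion 2. In low dose ganglion 1 and 2 the shares were 1.91% and 1.274%, against 19.1% in low dose ganglion 3. Control ganglion 2 and low dose ganglion 3 thus stood apart from the other libraries of their groups. For the 402 features absent from control gut, the shares were 2.24%, 16.4% and 3.23% in control ganglion 1, 2 and 3, and 49.75%, 38.1% and 16.7% in low dose ganglion 1, 2 and 3. Of all members, 58.45% to 70.65% reached 10 counts in these 6 libraries. In high dose ganglion 1, 2 and 3 the shares were 17.8%, 22.9% and 38.2% of the 157. Of the 402 they were 16.7%, 20.4% and 15.7%. The labels do not say which gut and ganglion libraries came from 1 worm, and the part of single worms in these features was not tested here.

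**Figure D3:**
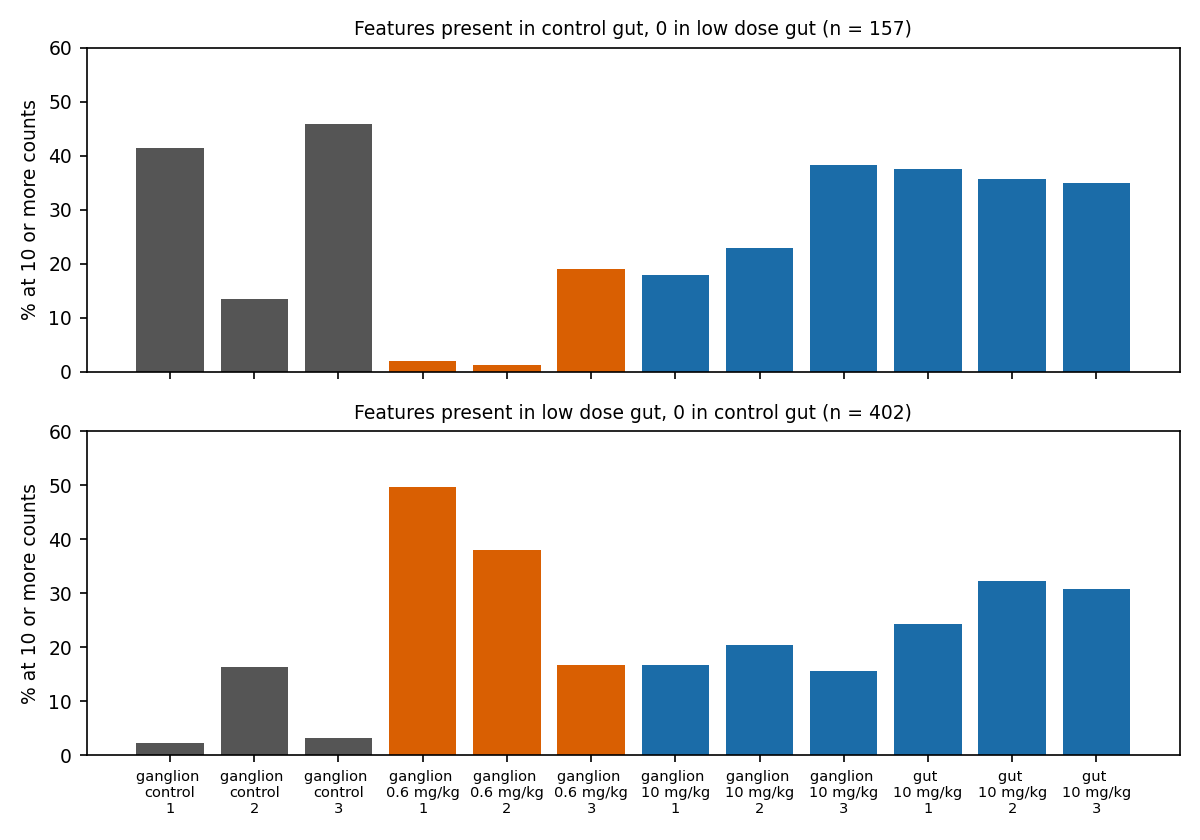
Share of the 157 features present in control gut and at 0 in low dose gut (top), and of the 402 with the opposite pattern (bottom), that had 10 or more counts in each ganglion library and each high dose gut library; bars start at 0. Control ganglion 2 and low dose ganglion 3 lie near each other in both panels, at 13.4% and 19.1% above and at 16.4% and 16.7% below. High dose ganglion 1, 2 and 3 lie at 17.8%, 22.9% and 38.2% above and at 16.7%, 20.4% and 15.7% below.

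The called features varied between ganglion libraries as well. All 7 lower features reached 10 counts in control ganglion 1 and 3 and 3 of them did in control ganglion 2. In low dose ganglion 1 and 2 a single one of the 7 did, and in low dose ganglion 3 it was 5. All 7 reached 10 counts in each of the 6 high dose libraries of either tissue. The high dose gut libraries entered the fit that made the calls, which favours features that are steady in them. Of the 157 features absent from low dose gut, 37.6%, 35.7% and 35.0% reached 10 counts in high dose gut 1, 2 and 3. Among all members the share was between 73.6% and 76.35%. Of the 9 higher features, 3, 5 and 3 reached 10 counts in control ganglion 1, 2 and 3, and 6, 6 and 4 in low dose ganglion 1, 2 and 3. All 9 did so in high dose gut 1, 2 and 3, and 4, 6 and 5 in high dose ganglion 1, 2 and 3.

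The assembly components of the absent features were looked up for other features. Of the 157, 112 belonged to a component with other features, and for 57 (36.3%) that component had 10 or more counts in all 3 low dose libraries. Of the 402, 294 had other features in the component, and for 149 (37.1%) the component had 10 or more counts in both controls. The component was at 0 in the other group for 64 of the 157 and 145 of the 402. The share in a component with other features was 71.3% and 73.1% in these sets and 72.9% of all members, so it was close to the background. Their median lengths were 657 and 823 bases, against 1374 for all members, among those whose length could be recovered (92, 221 and 36024 features). Of the called features, the component had 10 or more counts in all 5 libraries for 4 of the 9 higher and 3 of the 7 lower. The component of the lower feature of highest level held 14740 and 18188 counts in control and 11996, 3870 and 12140 in low dose gut. Counts of features in 1 component can share reads, so how they are divided among such features is uncertain.

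Transcripts restricted to gut took a smaller part of the RNA in low dose gut. A set of 590 gut-restricted features was taken from the high dose worms alone, as those with at least 20 CPM in each high dose gut library and a value at least 20-fold above that of any high dose ganglion library. They held 38.4% and 46.45% of the counts in control gut 2 and 3, and 26.5% in low dose 2 and 25.03% in the averaged low dose pair. The low dose samples were close together and below both controls, by 16.7 percentage points on average. The exact permutation test (two-sided) gave p = 0.333, the smallest that 2 against 2 samples allow. The high dose libraries, which defined the set, ranged from 31.4% to 52.7%, with 41.3% in high dose 1 and 31.4% in high dose 3. High dose 3 thus lay below both controls, and libraries of 1 group differed widely in this share. The cause of the lower share in low dose gut was not tested. In bulk tissue, fewer cells of a type and less RNA per cell cannot be told apart.

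The lower level was spread over the set and did not rest on a few abundant features. Of the 588 gut-restricted features tested, 510 were lower and 78 higher in low dose gut. Their median log2 fold was -1.02, and that of all members was 0.08. All low dose samples lay below all controls for 405 of them, a pattern seen in 16.7% of all members, and above all controls for 30, a pattern seen in 21.9% of all members. At an unadjusted p under 0.05, 195 were lower and 12 higher, against 4.03% and 4.16% of all members. By adjusted p, 2 were called, both higher, and none of those lower passed. With library totals alone as the scale, 447 were lower and their median log2 fold was -0.56, where all members had 0.51.

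The set differed from other features of the same level. Among features over 100 CPM, 293 were gut-restricted with a median log2 fold of -1.269, and 635 were not, with a median of -0.14. At 10 to 100 CPM the medians were -0.78 for 294 gut-restricted features and -0.07 for 9810 others. These medians are descriptions and no test was run on the difference. Ganglion-restricted features, defined in the same way from the high dose worms, made up 0.0672% and 0.0526% of the counts in the 2 low dose samples and 0.0484% and 0.0265% in control 2 and 3. Of the 314 in that set, 109 passed the filter, 85 of them higher in low dose gut, where 26955 of all 49345 members were higher. The filter admits more features through the low dose libraries, so nothing is read from that count. In the control and low dose ganglia the gut-restricted set held between 0.0293% and 0.242% of the counts, so the gut and ganglion libraries stood apart as labelled.

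**Figure D4:**
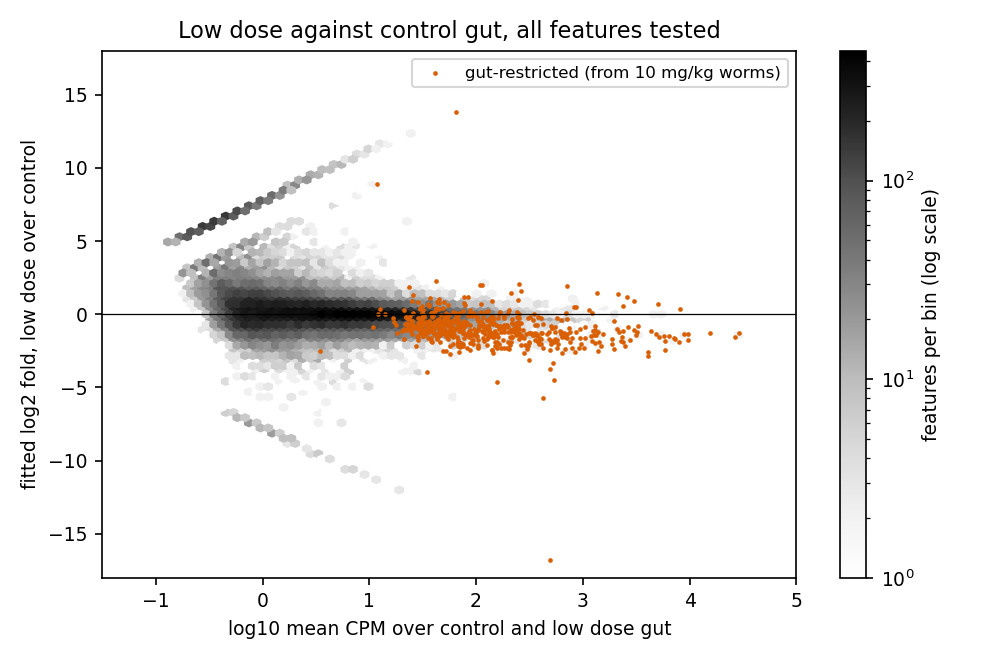
Fitted log2 fold of low dose over control gut against log10 mean CPM of the 4 samples, with all 49345 members as shaded bins and the 588 gut-restricted features tested as orange points. The orange points lie mostly below 0, with a median of -1.02, and the outer bands are features at 0 in 1 group.

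The most abundant gut transcripts followed the set. Among gut-restricted features of at least 300 bases, the 20 of highest mean FPKM in high dose gut were all but 1 lower in low dose gut, with both low dose samples below both controls for 19. That pattern was seen in 405 of the 588 gut-restricted features tested and in 16.7% of all members. The first of them, 541 bases long, stood at 58670 and 75960 FPKM in control 2 and 3 and at 34800, 43980 and 34340 in low dose 1, 2 and 3. At 10 mg/kg it stood at 84420, 94870 and 54560 FPKM. Its log2 fold was -1.28 (SE 0.789, adjusted p = 0.729 by edgeR), so a difference of this size lay within the fitted spread.

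The feature with the lowest fold among the 20, 575 bases long, stood at 6639 and 14590 FPKM in control gut and at 1736, 2483 and 1825 in low dose gut. Its log2 fold was -2.87 (SE 0.836, adjusted p = 0.518 by edgeR). The single feature on the other side, 1583 bases long, stood at 4509 and 3713 FPKM in control and at 5510, 8729 and 5476 in low dose gut, a log2 fold of 0.34 (SE 0.522). An unadjusted p under 0.05 was reached by 7 of the 20, all lower, and by adjusted p none was called. The share at that unadjusted p was 35.2% in the whole gut-restricted set and 8.19% in all members. Together the 20 held 17.9% and 22.2% of the counts in control gut against 11.55% and 10.5% in the low dose samples, and the other gut-restricted features 20.6% and 24.3% against 14.9% and 14.5%.

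**Figure D5:**
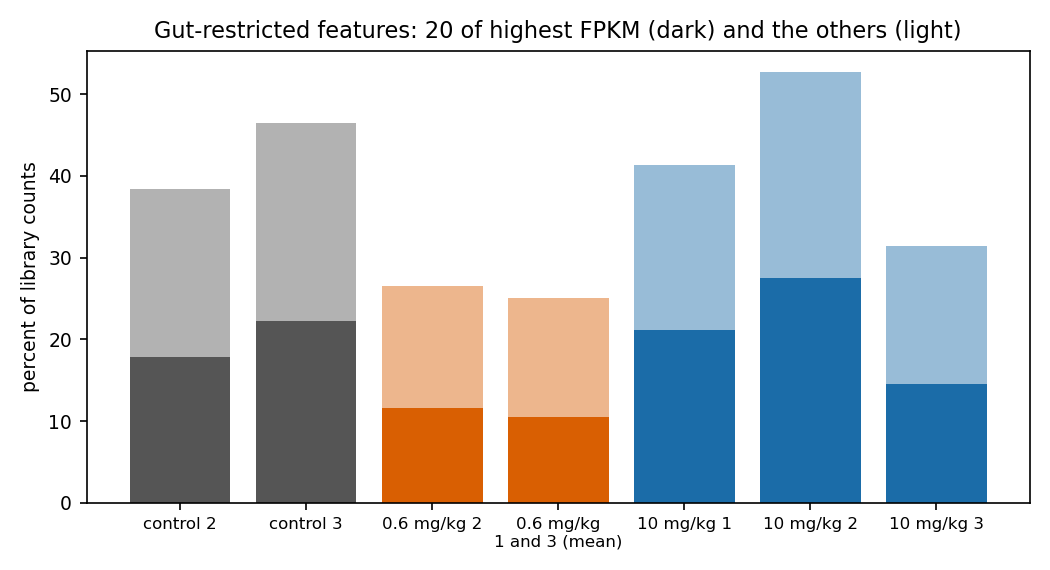
Percent of all counts in gut-restricted features in each gut sample, split into the 20 of highest FPKM (dark) and the rest (light); bars start at 0 and low dose 1 and 3 are averaged. The low dose samples lie at 26.5% and 25.03%, below the controls at 38.4% and 46.45% and below all high dose libraries, which defined the set.

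Counts were spread over more features in low dose gut. The 100 most abundant features of each library took 32.7% and 32.6% of the counts in the low dose samples and 38.3% and 45.96% in the controls. Between 89212 and 92432 features had at least 1 count in low dose libraries, against 83910 and 75100 in control 2 and 3, at similar totals. Over the members, the median log2 fold was 0.64 under 1 CPM (12329 features), a class near the filter, which admits more features through the low dose libraries, so nothing is read from it. It was 0.06 at 1 to 10 CPM, -0.08 at 10 to 100 CPM and -0.31 over 100 CPM. Among the 28706 features with 10 or more counts in all 5 libraries the median was -0.04. Among these it was -0.07 in the shortest of 5 length classes and 0.02 in the longest. The spread of the folds was wider in the shortest class, where 3.63% of features had a fold of 4 or more in either direction, against 0.722% in the longest.

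Differences of at least 4-fold without overlap of the samples were found in both directions. For 259 (0.525%) the lower of the 2 low dose samples was at least 4 times the higher control after adding 0.5 CPM, and for 190 (0.385%) the reverse held. Only 12 of the 259 and 26 of the 190 had 10 or more counts in all 5 libraries. The 259 had a median level of 0 CPM in control, 5.27 in low dose and 1.12 in high dose gut. The 190 had medians of 7.51, 0 and 1.84 CPM. By a looser criterion of 1 sample against 1, the controls differed by 4-fold or more for 3200 features (6.49%). Low dose 2 and the low dose pair did so for 3184 (6.45%), and low dose 1 and 3 for 17. The means of control and low dose gut differed by 4-fold or more for 1689 features (3.42%). As the criteria differ, these counts cannot be set against the 259 and 190.

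The low dose effect was also compared between the tissues, in a fit of all 6 groups that tests the difference of the 2 effects. Of 67132 features tested, 3 (0.00447%) passed by edgeR's adjusted p. Among the called gut features DN88869_c4_g1 passed, with a log2 difference of 4.35 (SE 0.482, adjusted p = 0.0268). DN97182_c4_g3 had a log2 difference of 5.23 (SE 1.24) and did not pass (adjusted p = 0.299 by edgeR), with its ganglion libraries spread widely within groups. Ganglion and gut libraries may come from the same worms, which the fit does not take into account.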

How the data were processed

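The members, the lists and most tests were chosen with earlier results of these data known. Per the labels the transcripts were assembled de novo, and CASAVA and DESeq2 appear in the submitters' processing notes. The labels used here give no counting program, version or filter. What the authors deposited are expected counts per assembled gene, not scaled between libraries, and FPKM values, scaled to length and library. From these, expected counts were rounded and tested by the quasi-likelihood method of edgeR (version 4.0.16, limma 3.58.1, R 4.3.3) with TMM scaling. The 3 gut groups were in 1 fit of 7 samples, with low dose 1 and 3 averaged and residual df 4. The high dose libraries served only to estimate the spread, with high dose 1 and 3 kept as 2 samples. That pair was closer than the controls, with a mean chi-square of 17.63 against 54.05. The residual df may therefore overstate the number of independent samples. The biological coefficient of variation was 60.2%. The Benjamini-Hochberg adjustment ran over all 49345 members. The tissue difference was fitted on 16 samples (residual df 10). DESeq2 1.42.0 and limma were alternatives. Named features were those of smallest p, 2 per direction, with 10 or more counts in all 5 libraries; the other features described singly, without identifiers, were chosen after their values were seen. Length is count over FPKM and library total, the median over libraries with 50 or more counts. It is thus the length that the FPKM used, which may be shorter than the assembled sequence. With control 2 matched to low dose 2, and control 3 to the low dose pair, the deviations had a correlation of 0.0424 over 36737 features. The opposite match gave -0.0424, since with 2 samples per group it only changes the sign. The low dose pair also mixes numbers 1 and 3, so this could not decide whether numbers are pairs. Samples were not treated as paired in the main fit. The fit was tested on simulated data. Floors cover counting error only.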

Additional observations from a re-analysis of the deposited data

Results flagged for a closer look

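The low dose effect differed between gut and ganglion for 3 features by a test of the difference itself (edgeR's quasi-likelihood test, adjusted p under 0.05, all 6 groups in 1 fit), which is 0.00447% of 67132 tested. An unadjusted p under 0.05 was found for 5572 features (8.30%), and DESeq2 called 1235. The fit does not model that gut and ganglion libraries may share worms. DN88869_c4_g1 had a log2 difference of effects of 4.35 (SE 0.482, adjusted p = 0.0268), with 4.84 in gut and 0.49 in the ganglion. The other two lie outside the rule for named features and are given by length. The one of 2399 bases had a log2 difference of -11.32 (SE 1.40, adjusted p = 0.0472): it held 493, 1776 and 640 counts in low dose ganglion 1, 2 and 3, against 4, 1 and 4 in the control ganglia, 15 and 9 in control gut and 4, 0 and 4 in low dose gut. The one of 132 bases had a log2 difference of -13.49 (SE 1.56, adjusted p = 0.0472): it held 10300 and 18027 counts in control gut 2 and 3, against 10, 17 and 9 in low dose gut and 0 in all high dose gut libraries. In the ganglion it held 0, 7 and 6 counts in control and 36, 40 and 28 at the low dose. Leaving out 1 control or low dose sample at a time gave 0 to 6 features, with 0 without gut control 2, gut control 3, gut low dose 2, the gut low dose pair, ganglion control 2 or ganglion low dose 2, and 6 without ganglion low dose 3. Without these single samples the log2 difference of DN88869_c4_g1 lay between 4.24 and 4.56 and its adjusted p between 0.0214 and 0.318. Of the 16 features called in gut, DN88869_c4_g1 was the 1 that passed this test, and 8 of the 16 had an unadjusted p under 0.05. The 16 were called for their gut fold, which is part of the difference tested. Small p-values among them are thus favoured, and nothing is read from that count. Several of the 16 had a ganglion group at 0 counts and an SE between 583 and 14010, so the test could not decide for them. The fitted low dose effect had the same sign in the ganglion as in gut for 13 of the 16. The share over all features is not given here, and some ganglion folds were near 0, so nothing is read from this.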

How the results depend on the processing

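The count of 16 called features was 12 to 18 with RLE scaling, library totals or edgeR's own filter, and 8 with counts summed per assembly component, an alternative added after seeing the data, as was the use of library totals. It was 3515 without a filter on low counts (1494 higher and 2021 lower), 716 with DESeq2, 72 with limma on log2 CPM, 330 and 232 with limma on FPKM at pseudocounts of 1 and 0.1, and 51 with low dose 1 and 3 as separate samples. These settings, apart from the component sums, shared 12 to 16 of the 16 features. It was 0 with high dose 1 and 3 averaged (3197 at an unadjusted p under 0.05) and 0 with only the compared groups in the fit (3386). It was also 0 with the replicate block (2866), which takes equal numbers as pairs. Whether the numbers pair the samples could not be decided. Leaving out 1 replicate gave 0 to 28, and fits that leave 1 sample in a group assume that it varies like the others. The counts of non-overlapping features, 259 higher and 190 lower, became 1256 and 865 at a gap of 2-fold, 77 and 72 at 8-fold, and 393 higher on library totals. With 1 replicate left out they were 526 to 1307 higher (618 without control 3) and 391 to 726 lower (568 without the low dose pair). The difference in gut-restricted share stayed negative, between -20.7 and -12.7 percentage points, in all 7 alternatives. Leaving out 1 sample could not change its sign, because both low dose samples lay below both controls. The other alternatives took overlapping sets from the same high dose libraries, so nothing is read from the constant sign. The 3 features of the tissue difference were 1 with edgeR's filter, 1235 with DESeq2, 15 with the low dose pair separate, 1 with high dose 1 and 3 averaged, 0 with only control and low dose libraries (4447 at an unadjusted p under 0.05), and 0 to 6 without 1 replicate. All 4 named features kept their direction in 21 alternatives; the 2 lower ones passed the adjusted threshold in 4 and 3 of them. The cause of these changes was not tested.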
